A study of Mus musculus with 90 samples.

Results

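The cell cycle and DNA replication genes described here are 46 of the 18193 genes measured on 90 mouse expression arrays, each hybridised with RNA from a subcutaneous melanoma allograft. They were chosen by name from a list of 47 genes, and where a gene had several probe sets the brightest on average stood for it. Ccnb1, the remaining name, had no probe set annotated to it alone and was skipped. The list holds 23 genes of DNA replication, called S phase genes, and 23 mitotic genes.

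The tumours fall into 7 groups. Relapse tumours (6) had shrunk below measurable size under an antibody against PD-L1 and regrown, and were taken after 4 to 10 doses. Stabilization tumours (3) belonged to the Responder design and held a constant volume between consecutive measurements. GrowthDelay tumours (2) first appeared after treatment had begun. Responder tumours (27) lost at least 5% of their volume and were taken after 2 to 12 doses of the same antibody. NonResponder tumours (23) received it too and kept growing. Control IgG tumours (22) received an isotype antibody and PBS tumours (7) the vehicle. The sample labels give both antibodies at 10 mg/kg and PBS at 10 ml/kg, while the series' design text names 10 or 20 mg/kg for the antibodies, and the antibody against PD-L1 is a mouse IgG1 with the D265A change. Every tumour, controls included, carries the genotype Hgf transgene with Cdk4 R24C on both alleles, and the strain is labelled B6.cBrd. The labels state neither the promoter of the transgene nor whether each array comes from a mouse of its own, so the p-values measure the spread between these samples. Ages are not given in the sources used here.

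A dividing cell first loads the MCM helicase onto replication origins with the help of Cdc6 and Cdt1, then fires the origins through Cdc45 and the GINS complex and copies its DNA with the sliding clamp Pcna. It later condenses its chromosomes, attaches them to the spindle through centromere proteins, and separates them under the control of Cdk1, the aurora kinases and the spindle checkpoint. Transcription of the first set is driven largely by E2F factors at the entry to S phase. That of the second is driven by Foxm1 and Mybl2, at promoters that often hold CHR and CCAAT elements. Cdk4 with a D-type cyclin starts this sequence, and the R24C form escapes inhibition by the p16 product of Cdkn2a. In melanoma the proportion of cycling cells is routinely read from the protein Ki-67, the product of Mki67.

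Promoters are shown because E2F, CCAAT and CHR motifs are known from replication and mitotic genes. RefSeq promoter entries (GRCm38.p6, 250 bases before to 50 bases after the annotated start) were found for 19 S phase and 18 mitotic genes. Mcm5 and Cdk1 are printed for the motifs they hold, chosen after the motifs were counted, and the other 4 for the smallest p between Responder and NonResponder tumours among members with an entry. Capitals mark the E2F letters TTTCCCGC, TTTGGCGC, TTTCGCGC or TTTGCCGC, the letters CCAAT, and the CHR letters TTTGAA, each on either strand. Mcm5 (chr8:75109259-75109558, plus strand), a helicase subunit, holds a pair of overlapping E2F matches in 1 run of capitals, and 3 CCAAT matches.
Mcm5: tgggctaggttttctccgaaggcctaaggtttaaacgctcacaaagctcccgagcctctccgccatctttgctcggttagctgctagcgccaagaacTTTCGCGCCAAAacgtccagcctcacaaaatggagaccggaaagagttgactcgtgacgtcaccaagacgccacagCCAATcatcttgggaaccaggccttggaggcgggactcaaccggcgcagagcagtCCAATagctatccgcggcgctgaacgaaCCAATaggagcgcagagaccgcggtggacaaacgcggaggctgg
Pcna (chr2:132253131-132253430, minus strand), the sliding clamp, holds 1 CCAAT match, on the reverse strand of the gene.
Pcna: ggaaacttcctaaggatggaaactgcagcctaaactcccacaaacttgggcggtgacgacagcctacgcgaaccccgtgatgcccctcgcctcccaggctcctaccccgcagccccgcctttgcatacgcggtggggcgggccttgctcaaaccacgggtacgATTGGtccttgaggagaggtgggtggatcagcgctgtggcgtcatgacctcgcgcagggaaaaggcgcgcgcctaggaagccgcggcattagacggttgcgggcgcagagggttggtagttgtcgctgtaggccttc
Ccne1 (chr7:38107441-38107740, minus strand), cyclin E1, holds none of these letters in the window.
Ccne1: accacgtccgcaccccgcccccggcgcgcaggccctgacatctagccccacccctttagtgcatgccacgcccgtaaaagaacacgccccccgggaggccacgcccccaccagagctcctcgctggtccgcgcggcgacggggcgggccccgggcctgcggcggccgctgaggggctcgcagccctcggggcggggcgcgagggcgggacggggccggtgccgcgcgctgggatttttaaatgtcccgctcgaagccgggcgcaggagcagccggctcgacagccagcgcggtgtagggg
Cdk1 (chr10:69352863-69353162, minus strand), the mitotic kinase, holds 1 E2F, 3 CCAAT and 2 CHR matches.
Cdk1: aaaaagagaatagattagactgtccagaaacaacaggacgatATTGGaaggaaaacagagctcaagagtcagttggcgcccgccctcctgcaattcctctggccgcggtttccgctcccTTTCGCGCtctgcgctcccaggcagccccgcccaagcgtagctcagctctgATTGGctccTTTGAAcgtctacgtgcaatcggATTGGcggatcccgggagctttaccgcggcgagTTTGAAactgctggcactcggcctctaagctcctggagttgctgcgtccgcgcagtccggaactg
Cenpa (chr5:30666636-30666935, plus strand), the histone variant that marks centromeres, holds 2 CCAAT matches and 1 CHR match.
Cenpa: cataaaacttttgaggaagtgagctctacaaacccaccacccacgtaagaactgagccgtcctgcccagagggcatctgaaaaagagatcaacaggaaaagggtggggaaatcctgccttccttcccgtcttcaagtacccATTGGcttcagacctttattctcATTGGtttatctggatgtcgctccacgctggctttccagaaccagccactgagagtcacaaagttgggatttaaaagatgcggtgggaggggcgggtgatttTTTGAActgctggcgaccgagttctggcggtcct
Mad2l1 (chr6:66534971-66535270, plus strand), which encodes the spindle checkpoint protein Mad2, holds none of these letters in the window.
Mad2l1: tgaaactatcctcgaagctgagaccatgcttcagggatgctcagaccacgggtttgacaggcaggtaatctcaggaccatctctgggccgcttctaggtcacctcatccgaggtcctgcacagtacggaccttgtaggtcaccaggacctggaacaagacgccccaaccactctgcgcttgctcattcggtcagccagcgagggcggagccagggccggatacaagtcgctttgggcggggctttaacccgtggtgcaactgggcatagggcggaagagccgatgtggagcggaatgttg

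The E2F letters stood in 7 of the 19 S phase promoters (36.8%), in 1 of the 18 mitotic promoters (5.6%) and in 2.3% of all 27025 promoters. The CHR letters stood in 13 of the 18 mitotic promoters (72.2%), in 3 of the 19 S phase promoters (15.8%) and in 18.1% of all. All 13 mitotic promoters with a CHR match also held CCAAT, a combination found in 7.1% of all promoters. CCAAT stood in 15 mitotic promoters (83.3%), in 12 S phase promoters (63.2%) and in 37.9% of all. All 3 S phase promoters with a CHR match also held CCAAT. These shares are descriptions, and the differences between the lists were not tested. A match is not a binding site, and the absence of one says only that these letters are not in the window.

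In the data as a whole 4 arrays stood apart, and leaving them out was chosen after seeing the data. They are Responder replicates 20 and 21, Stabilization replicate 1 and NonResponder replicate 14. Their mean correlation with the other arrays was under 0.95 (0.902 to 0.938), and that of the remaining 86 arrays was 0.95 or higher. PBS replicate 5 (0.953), Responder replicate 4 (0.957) and Stabilization replicate 2 (0.959) lay close above that value. The mean mitotic level over the 23 genes was 7.75 in Responder replicate 21, 8.44 in Stabilization replicate 1, 9.03 in Responder replicate 20 and 9.30 in NonResponder replicate 14 (log2). Responder replicate 4 (9.24) and Stabilization replicate 2 (9.42) were also low, while the other 84 tumours lay at 9.70 or above. In the 4 arrays the mean level of 9 melanocyte markers was 6.85, 7.05, 6.91 and 8.38, against a median of 9.99 over all 90 arrays. The mean level of 8 fibroblast markers was 12.19, 12.41, 11.30 and 11.29, against an overall median of 9.37. Responder replicate 20 and NonResponder replicate 14 also had the B cell markers high, at 9.72 and 9.46, and the 10 skeletal muscle markers averaged 12.89 in Responder replicate 21. The part that these other cell types played in the low levels was not tested. Counts of called members and the correlations between members are given with and without the 4 arrays. In bulk tumour RNA, fewer cells of a type and less RNA per cell cannot be told apart.

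**Figure D1:**
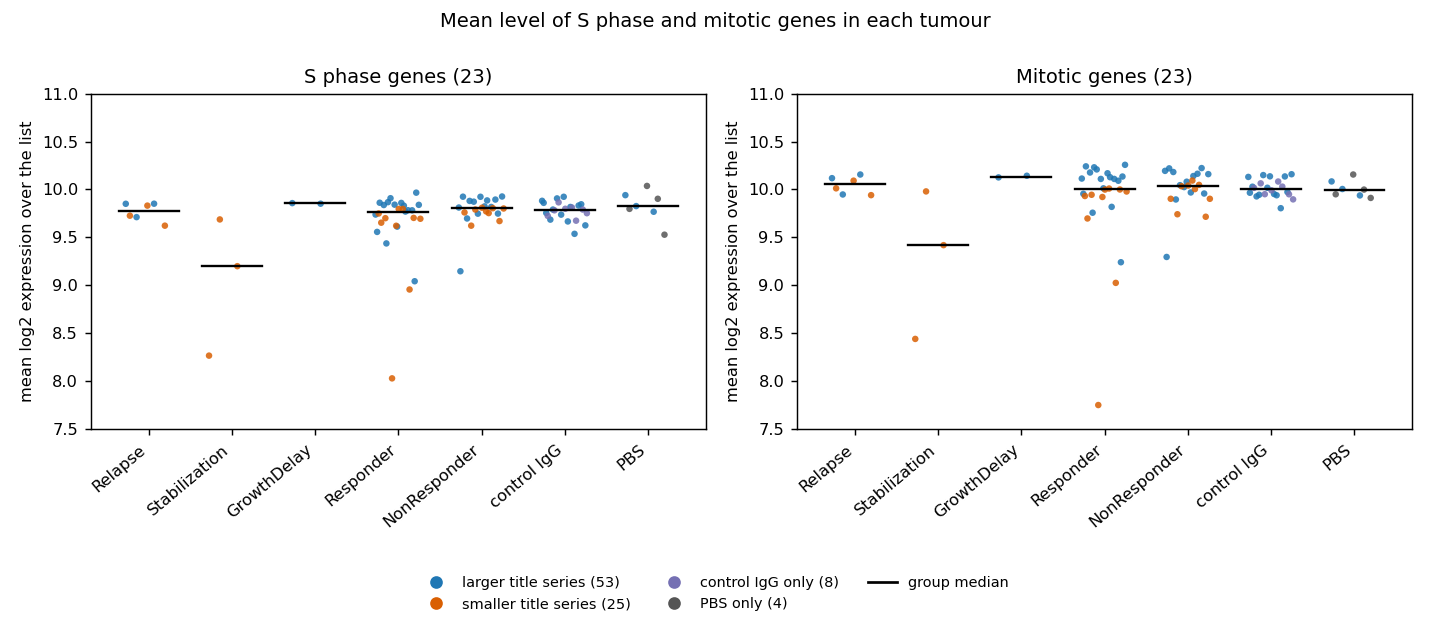
Mean log2 level of the 23 S phase genes (left panel) and the 23 mitotic genes (right panel) in each of 90 tumours, by group. Points are tumours, coloured by title series (a run of sample numbers), and bars are group medians. Single Responder, Stabilization and NonResponder tumours lie far below the rest, and the group medians of the mitotic level lie between 9.42 and 10.13.

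RMA values of different probe sets are not levels per length and are not ranked against each other here. The group medians of the mean S phase level were 9.78 in Relapse, 9.20 in Stabilization, 9.86 in GrowthDelay, 9.77 in Responder, 9.80 in NonResponder, 9.79 in control IgG and 9.83 in PBS tumours. The Responder range, 8.03 to 9.97, covered the NonResponder range of 9.15 to 9.93 and the control IgG range of 9.54 to 9.92. The mean levels of both lists thus overlapped between Responder, NonResponder and control IgG tumours. The S phase range of the Stabilization tumours (8.27 to 9.69) lay under the 2 GrowthDelay values of 9.85 and 9.86. All Stabilization tumours belong to a single title series and both GrowthDelay tumours to another. Group and series cannot be told apart in that difference.

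Tumours that shrank under the antibody were set against tumours that grew under it. In Responder tumours 13 of the 46 genes were lower than in NonResponder tumours and none was higher. The lower genes were Gins1, Gins2 and Cdc45, which fire origins, the clamp Pcna, thymidine kinase Tk1 and cyclin E1 (Ccne1) among the S phase genes. Among the mitotic genes they were Cdk1 and its cyclin Ccnb2, the kinases Aurka and Bub1, the checkpoint protein Mad2l1, Birc5 (survivin, of the chromosomal passenger complex) and Cenpa. Over all genes, 29.8% were called lower and 17.2% higher in Responder tumours. The 13 genes are 28.3% of the list, a share close to the 29.8% for genes at large, and so the count alone does not set these genes apart. The split over all genes, 3138 higher and 5414 lower, was 2058 and 9127 when each array was centred on its median, which called 21 members, all lower. A call means a Benjamini-Hochberg adjusted p under 0.05 over all 18193 genes in limma. Counts of members by sign or by unadjusted p come without the share over all genes. Members also correlate with each other across arrays, so such counts are not read as results about the list.

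Among the origin and helicase genes, Gins2 had a level between 6.94 and 10.19 (median 9.29) in Responder tumours, against 8.33 to 10.35 (median 9.83) in NonResponder tumours. The ranges overlapped, with the median of the Responder tumours lower. The log2 difference was −0.62 ± 0.15 (SE; n = 27 and 23; limma adjusted p = 0.00152), so the NonResponder level was 1.53-fold the Responder level. Gins1, of the same complex, fell by 0.53 ± 0.15 (limma adjusted p = 0.00466) and Cdc45 by 0.31 ± 0.11. Pcna lay at 11.82 to 13.58 (median 13.07) in Responder tumours, against 12.69 to 13.59 (median 13.30) in NonResponder tumours. It fell by 0.25 ± 0.07 on the log2 scale (limma adjusted p = 0.0037).

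The helicase itself showed another picture. Mcm5 had a median of 11.35 (9.46 to 11.62) in Responder tumours and 11.31 (10.94 to 11.55) in NonResponder tumours, a difference of 0.03 ± 0.09 (limma adjusted p = 0.813). The differences of Mcm2, Mcm3, Mcm4, Mcm6 and Mcm7, the other subunits of the ring, lay between −0.09 and 0.09, and none passed the threshold. In these tumours no subunit of the ring was called, while Gins1, Gins2 and Cdc45, whose products activate the ring, were called lower. The contrast between these sets of genes was not tested.

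Among the genes of nucleotide supply, Tk1 fell by 0.29 ± 0.11 (limma adjusted p = 0.0224). Rrm2 and Rrm1, the ribonucleotide reductase subunits, differed by −0.21 ± 0.10 and −0.11 ± 0.06 without passing. Of the G1/S cyclins and their kinase, Ccne1 fell by 0.25 ± 0.07 (limma adjusted p = 0.00274). Ccne2 (−0.50 ± 0.22, limma adjusted p = 0.0524) and Cdk2 (−0.27 ± 0.13) did not pass. The transcription factors of the G1/S wave lay on the other side of 0, E2f1 at 0.12 ± 0.07, Mybl2 at 0.13 ± 0.09 and E2f8 at 0.04 ± 0.07, and none passed.

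Among the mitotic cyclins and their kinase, Cdk1 had levels of 8.80 to 11.67 (median 11.24) in Responder tumours, against 9.85 to 11.90 (median 11.52) in NonResponder tumours. It fell by 0.35 ± 0.13 (limma adjusted p = 0.0218), and Ccnb2 by 0.34 ± 0.12. Ccna2, which acts in S phase and early mitosis, differed by −0.04 ± 0.10. Of the 9 genes of spindle kinases, the checkpoint and the anaphase-promoting complex, 4 fell: Mad2l1 by 0.42 ± 0.13, Birc5 by 0.28 ± 0.10, Bub1 by 0.37 ± 0.14 and Aurka by 0.30 ± 0.13. Cenpa lay at 8.04 to 10.95 (median 10.37) in Responder tumours, against 9.72 to 11.17 (median 10.70) in NonResponder tumours. It fell by 0.41 ± 0.12 (limma adjusted p = 0.00685), the only 1 of the 8 genes of motors, microtubule and centromere proteins to pass. Kif20a, a motor of cell division, differed by −0.24 ± 0.11 and Nusap1, a microtubule binder, by −0.23 ± 0.11.

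Mki67, the proliferation marker, had a difference of the opposite sign that did not pass. Its levels were 9.63 to 11.44 (median 10.88) in Responder tumours, against 9.76 to 11.40 (median 10.63) in NonResponder tumours. The difference was 0.26 ± 0.13 with a limma adjusted p of 0.0783, which misses the threshold over 90 arrays. Top2a, which untangles sister chromosomes, had a median of 11.14 (9.04 to 11.57) in Responder tumours and 11.07 (10.53 to 11.55) in NonResponder tumours, with a difference of 0.07 ± 0.10. Foxm1 differed by 0.10 ± 0.10. None of these 3 genes passed the threshold with all arrays.

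Without the 4 arrays that stood apart, 15 members were called, and these included all 13 above. The 2 added were Rrm2, at −0.13 (limma adjusted p = 0.0471), and Mki67, then higher in Responder tumours at 0.30 (limma adjusted p = 0.0426). Called genes made up 17.9% (higher) and 31.4% (lower) of all genes in that fit. Gins2 then stood at −0.51, Cdk1 at −0.26, Pcna at −0.20 and Cenpa at −0.31. Leaving out 21 arrays with high lymph node or muscle markers ended 8 of the 13 calls and kept Gins2, Pcna, Cdk1, Ccnb2 and Cenpa. Array weights gave 31 calls, 17 lower and 14 higher, Mki67 among the higher ones, in a fit whose weights did not fully converge. The share of all genes called in that fit is not given. The median difference over the 46 members was −0.11 with all arrays, against −0.06 over all genes, and −0.01 without the 4 arrays.

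**Figure D2:**
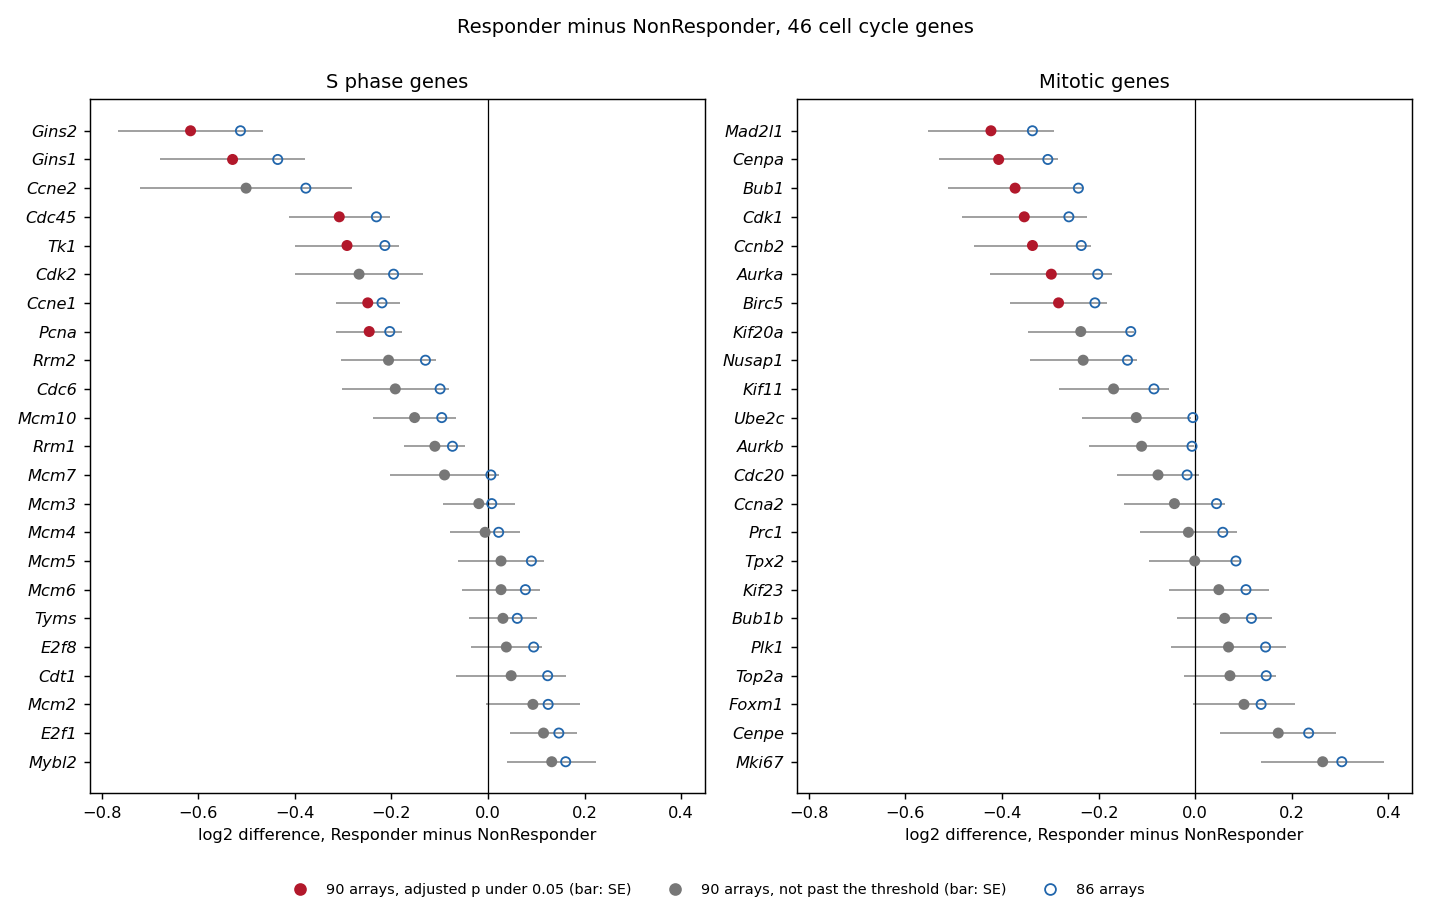
Log2 difference, Responder minus NonResponder, for each of 46 genes, S phase genes on the left and mitotic genes on the right, each sorted by the difference. Filled points are the fit to 90 arrays with bars of 1 SE (red where the limma adjusted p is under 0.05), and open circles the fit to 86 arrays. The GINS genes reach −0.62 at 1 end and Mki67 reaches 0.26 at the other, and for Gins2 the open circle lies at −0.51 and the filled point at −0.62.

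Markers of other cells differed between the same groups. Of 9 T cell markers 8 were higher in Responder tumours, and their mean level ranged from 5.66 to 9.79 in Responder and from 5.38 to 9.74 in NonResponder tumours. All 8 macrophage markers were higher (range of the mean 8.54 to 12.11 in Responder and 8.41 to 11.93 in NonResponder tumours), and so were 7 of 8 fibroblast markers (6.93 to 12.19, against 6.21 to 11.29 in NonResponder tumours), with 1 lower. Of 6 endothelial markers 5 were higher. Of 9 melanocyte markers 3 were lower, a share close to that of all genes called lower in this comparison. Their mean ran from 6.85 to 10.30 in Responder and from 8.38 to 10.38 in NonResponder tumours. The shares of higher T cell, macrophage, fibroblast and endothelial markers lay above that of all genes called higher. No marker was at 0, since RMA gives every probe set a value. Their part in the cell cycle differences was not tested.

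Sample numbers fall into title series, 53 arrays in the larger and 25 in the smaller with several groups each, and the labels do not say what the series stand for. Both hold Responder and NonResponder tumours, 17 and 14 in the larger and 10 and 9 in the smaller. Within the smaller series 16 members were lower in Responder tumours, against 22.4% of all genes lower there and 36.7% called in either direction. In that series the 3′ minus 5′ Gapdh signal, a sign of RNA quality, was 0.81, 0.49 and 0.24 in Responder replicates 19, 21 and 20, and at most 0.14 in NonResponder tumours. These 3 tumours had the lowest mitotic levels of the Responder tumours there, and the part of RNA quality was not tested. Within the larger series no member passed in limma, where 2.01% of all genes were lower and 0.616% higher (2.63% in all), and 3 members had an unadjusted p under 0.05. Gins2 differed by −1.01 ± 0.24 within the smaller series and by −0.37 ± 0.19 within the larger (limma adjusted p = 0.00217 and 0.19). A test of the difference between the series called no member and no gene. For Gins2 that difference was 0.64 ± 0.31 (limma adjusted p = 0.359). Without the 4 arrays, 10 members were lower within the larger series (14.4% of all genes) and 1, Gins2, within the smaller (5.85% of all genes). Of the 4 arrays, 3 belong to the smaller series and NonResponder replicate 14 to the larger.

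**Figure D3:**
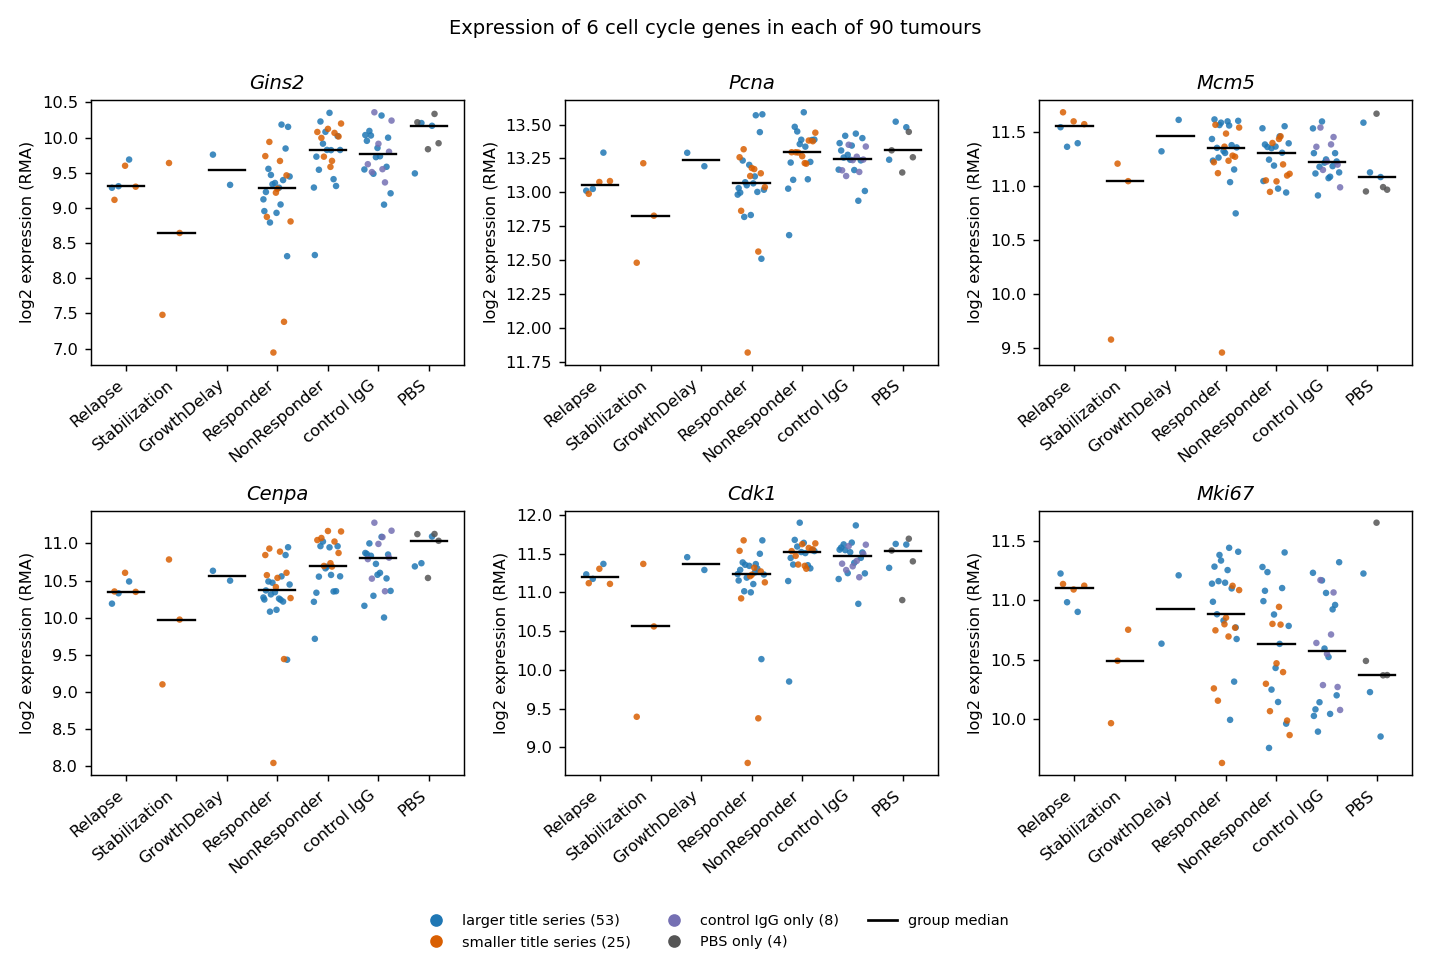
Log2 level of Gins2, Pcna, Mcm5, Cenpa, Cdk1 and Mki67 in each of 90 tumours, by group. Points are coloured by title series and bars are group medians. Gins2, Pcna, Cenpa and Cdk1 have lower medians in Relapse, Stabilization and Responder tumours than in NonResponder tumours, Mcm5 has its highest median in Relapse tumours, and so has Mki67.

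Responder tumours were next set against tumours under the isotype antibody, which asks how tumours shrinking under the antibody against PD-L1 differ from those given a control antibody. Here 8 members were called, 6 lower and 2 higher, against 22.8% of all genes lower and 14.5% higher. Gins2, Gins1, Ccne1, Tk1, Mad2l1 and Cenpa were lower, and Mki67 and Cenpe, a kinesin that carries chromosomes to the spindle equator, were higher. In either direction 37.3% of all genes were called, so the count of members lies under that of genes at large. Median centring turned the split of all genes from 2641 higher and 4150 lower into 2012 and 6222. With title series as a term, every difference from control IgG tumours rests on the 14 in the larger series. The other 8 make up a title series of their own and add nothing to such a difference. The control IgG ranges and medians given are of all 22.

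Gins2 in control IgG tumours lay between 9.05 and 10.36 (median 9.77), and the Responder difference was −0.55 ± 0.18 (limma adjusted p = 0.0168). Ccne1, at 8.49 to 9.11 (median 8.81) in control IgG tumours, was 0.26 ± 0.08 lower in Responder tumours (limma adjusted p = 0.0098), whose range was 7.69 to 9.01 (median 8.66). Mki67 lay at 9.90 to 11.32 (median 10.57) in control IgG tumours, and the Responder difference was 0.39 ± 0.16 (limma adjusted p = 0.0411). The ranges overlapped for all of these genes, and the calls rest on the shift of the group means. Cenpe differed by 0.35 ± 0.15 (limma adjusted p = 0.0492). Pcna (−0.20 ± 0.08, control IgG range 12.94 to 13.43), Cdk1 (−0.32 ± 0.16, 10.85 to 11.87), Mcm5 (0.11 ± 0.11, 10.91 to 11.60) and Top2a (0.11 ± 0.12, 10.72 to 11.46) did not pass.

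Mki67 and Cenpe lost their calls when each array was centred on its median or quantile normalized, and Cdc45 and Pcna gained one, while the 6 lower genes kept theirs. The fit borrows part of this difference from the smaller series, which holds no control IgG tumour. The direct difference within the larger series called Ccne1 lower (−0.26 ± 0.08) and Cenpe (0.43 ± 0.15) and Mki67 (0.42 ± 0.16) higher, against 16.5% of all genes lower and 10.9% higher. Without the 4 arrays 19 members were called, 11 lower and 8 higher, against 23.8% and 16.1% of all genes. All 8 were among the 19. Those added on the higher side were E2f1, Foxm1, Mcm2, Mybl2, Plk1 and Prc1, and those added on the lower side Aurka, Bub1, Ccnb2, Cdk1 and Pcna. Of the markers, 8 of 9 for T cells and 7 of 8 for macrophages were higher in Responder than in control IgG tumours, and 4 of 9 for melanocytes were lower. Each of these shares lay above that of all genes called in the same direction. The part of these markers was not tested.

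NonResponder and control IgG tumours, both growing, gave no called member and no called gene in limma (0%), and no member had an unadjusted p under 0.05. On the control IgG side the fit again rests on the 14 tumours of the larger series. The member differences had a median of 0.07 and were positive for 40 of the 46, a count given without the share over all genes. Mki67 differed by 0.13 ± 0.16, Cdk1 by 0.04 ± 0.16, Pcna by 0.05 ± 0.09 and Mcm5 by 0.08 ± 0.11. The smallest unadjusted p among the members belonged to Mcm4, at 0.14 ± 0.09. No member was called without the 4 arrays either, and the median was then 0.05. Control IgG against PBS tumours gave 1 called gene of all (0.0055%) and no member. Only the larger title series holds both groups, so this difference rests on 14 control IgG and 3 PBS tumours. PBS tumours had Mki67 at 9.86 to 11.65 (median 10.37), Top2a at 10.84 to 11.45, Pcna at 13.15 to 13.52, Cdk1 at 10.90 to 11.69, Mcm5 at 10.95 to 11.67, Gins2 at 9.49 to 10.34 and Cenpa at 10.54 to 11.13. The control groups overlapped for each of these 7 genes, and the control IgG minus PBS differences lay at 0.15 ± 0.29 for Mki67 and −0.08 ± 0.29 for Cdk1. PBS replicate 5 differed from the other 89 arrays in RNA quality, with a 3′ minus 5′ signal of the Gapdh control probe sets of 4.31 against −0.34 to 0.81 elsewhere (log2).

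Relapse tumours, which regrew under treatment, had Mki67 and Cenpe medians of 11.11 and 9.09, against 10.63 and 8.61 in NonResponder tumours. Against NonResponder tumours 1 member was called, Cenpe, higher by 0.55 ± 0.20 (limma adjusted p = 0.0406), where 8.43% of all genes were higher and 11.9% lower (20.3% in all). With median centring the split of all genes was 797 higher and 6552 lower, against 1533 and 2164, the median of all genes moved to −0.18 from −0.06, and Cenpe lost its call while Birc5, Ccne1, Mad2l1 and Pcna were called lower. With quantile normalization the split was 333 and 994, and no member was called. Cenpe had values of 9.23, 9.07, 9.04, 9.08, 9.09 and 9.35 in the 6 Relapse tumours. These lie within 0.31 of each other. Mki67 lay at 10.90 to 11.22 (median 11.11) in Relapse tumours, above the NonResponder median of 10.63, and its difference of 0.52 ± 0.21 missed the threshold (limma adjusted p = 0.0579).

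The remaining named genes did not pass between Relapse and NonResponder tumours. Gins2 lay at 9.12 to 9.69 (median 9.31) and Cenpa at 10.19 to 10.61 (median 10.35) in Relapse tumours, so both medians lay under those of NonResponder tumours. Cdk1 lay at 11.11 to 11.37 (median 11.20) and Pcna at 12.99 to 13.29 (median 13.05). Mcm5, at 11.36 to 11.68 (median 11.56), and Top2a, at 11.10 to 11.51 (median 11.28), had medians above the NonResponder ones. The differences were −0.19 ± 0.21 for Cdk1, −0.20 ± 0.11 for Pcna, 0.28 ± 0.14 for Mcm5 and 0.29 ± 0.16 for Top2a. Without the 4 arrays, of which 1 is a NonResponder tumour and none a Relapse tumour, 13 members were called, against 17.4% of all genes higher and 22.7% lower. Cenpe, Mki67 (0.53) and Mcm5 (0.27) were then higher, and Pcna (−0.23), Cdk1 (−0.28), Ccne1 (−0.22), Mad2l1 (−0.50), Birc5 (−0.35), Cenpa (−0.40) and 3 S phase genes, Gins1, Gins2 and Ccne2, together with Aurka were lower. Within the smaller series, with 3 Relapse tumours, no member passed, where 4.57% of all genes were higher and 8.51% lower, and 7 members had an unadjusted p under 0.05. Within the larger series, also with 3, limma called no gene (0%). Leaving out Relapse replicate 1, 4, 5 or 6 ended the call of Cenpe, and leaving out replicate 2 added Mki67.

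Against control IgG tumours 5 members were higher in Relapse tumours, against 10.5% of all genes higher and 13.1% lower (1916 and 2382 genes, and 1194 and 4917 with median centring, or 326 and 633 with quantile normalization). They were Cenpe at 0.73 ± 0.22 (limma adjusted p = 0.0176), Mki67 at 0.65 ± 0.23, Mybl2 at 0.48 ± 0.17, Mcm2 at 0.49 ± 0.17 and Foxm1 at 0.50 ± 0.19. Foxm1 is a transcription factor of mitotic genes, and Mybl2, itself switched on at the entry to S phase and listed there, acts with it. Cdt1, the licensing factor, differed by 0.47 ± 0.20 and Plk1, a mitotic kinase, by 0.53 ± 0.21, without passing. The direct difference within the larger series called no member, with 0.044% of all genes called, and 1 member had an unadjusted p under 0.05. No member was called after quantile normalization, without the title series term or without Relapse replicate 6, and 1 or 2 without replicate 1, 4 or 5. Replicate 6 had the highest B cell, lymph node and adipocyte marker means of the Relapse tumours, at 6.96, 6.60 and 9.72. It was not among the arrays left out for neighbouring tissue, and the part of these markers was not tested. Without the 4 arrays 14 members were called, 11 higher and 3 lower, against 16.1% and 18.8% of all genes, and all 5 were among them. Between Relapse and Responder tumours limma called no gene (0%), and no member had an unadjusted p under 0.05. The median member difference there was 0.17, positive for 43 of 46 genes, and 0.05 without the 4 arrays, again with no call. No share over all genes is given for this sign count. For the same groups within the smaller series, several members had an unadjusted p under 0.05, all higher in Relapse tumours, and none passed. Cenpe had the smallest, at 0.71 ± 0.28 (unadjusted limma p = 0.0123). In the larger series no member had an unadjusted p under 0.05. Of the markers, 5 of 8 for fibroblasts and 4 of 8 for macrophages were higher in Relapse than in NonResponder tumours. Both shares lay above that of all genes called higher there. The part of these markers was not tested.

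Stabilization tumours had the lowest levels of the list, and the result rests on 1 tumour. Of the 46 genes 28 were lower than in NonResponder tumours, 16 S phase and 12 mitotic, against 11.9% of all genes lower and 10.5% higher (2162 and 1912 genes, and 3592 and 1656 with median centring). None was called without Stabilization replicate 1, and 7 without replicate 2. The 28 are 60.9% of the list, and the median over the 46 genes was −0.60, against −0.09 over all genes.

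The 3 tumours differed widely among themselves. Mcm10, a replication initiation factor, had 6.94, 8.05 and 8.56 in Stabilization replicates 1, 2 and 3. It was 0.84 ± 0.19 lower than in NonResponder tumours (limma adjusted p = 0.00327), and it is the 1 member still called without the 4 arrays (−0.48, limma adjusted p = 0.0481), where 0.357% of all genes were lower. Cdk1 had 9.40, 10.56 and 11.37, and Gins2 7.48, 8.64 and 9.64. In each case replicate 1 was lowest and replicate 3 nearest to the NonResponder median.

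Mcm5 had 9.58, 11.05 and 11.21 in the 3 Stabilization tumours, Pcna 12.48, 12.83 and 13.22, and Cenpa 9.10, 9.97 and 10.78. All 3 genes were called lower, Mcm5 by 0.57 ± 0.20, Pcna by 0.41 ± 0.15 and Cenpa by 0.84 ± 0.28. Among the remaining roles, Cdc6 fell by 0.97 ± 0.25, Cdk2 by 1.09 ± 0.30, Ccne1 by 0.61 ± 0.15, Rrm2 by 0.79 ± 0.22, Cdc20 (the activator of the anaphase-promoting complex) by 0.62 ± 0.19 and Kif11 (the motor that separates spindle poles) by 0.77 ± 0.26. Mki67, at 9.97, 10.75 and 10.49, differed by 0.00 ± 0.29 and Top2a, at 9.76, 10.82 and 10.98, by −0.30 ± 0.22, and neither passed. Markers moved with this result, with all 8 of macrophages and 5 of 8 of fibroblasts higher and 3 of 9 of melanocytes lower. Each of these shares lay above that of all genes called in the same direction. The fibroblast markers averaged 12.41, 11.38 and 9.91 in replicates 1, 2 and 3, melanocyte markers 7.05, 8.87 and 10.02, and muscle markers 7.43, 11.14 and 5.54. Over these 3 tumours the order of the melanocyte level is that of Cdk1 and Gins2. Its part was not tested.

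Stabilization against Responder tumours gave no called member, where 0.0934% of all genes were lower and 0.225% higher. All 46 differences were negative and 22 had an unadjusted p under 0.05. Neither count has a share over all genes beside it, and correlated members do not count separately. Mcm10 differed by −0.69 ± 0.19 (limma adjusted p = 0.0871). No member was called without the 4 arrays either, and 5 then had an unadjusted p under 0.05. Without Stabilization replicate 3, 28 members were called lower there, in a fit whose share of all genes called is not given. In the 2 GrowthDelay tumours Mki67 had 10.64 and 11.21, Top2a 11.24 and 11.17, Pcna 13.29 and 13.19, Cdk1 11.46 and 11.29, Mcm5 11.32 and 11.61, Gins2 9.76 and 9.33, and Cenpa 10.63 and 10.50. These values lie within the NonResponder ranges, apart from Mcm5 in replicate 2, which lies above. No gene was called against NonResponder tumours in limma (0%), and no member had an unadjusted p under 0.05. With 2 tumours the power was low. In simulated data for GrowthDelay against NonResponder tumours, 31% of changes of 0.5 log2 and 74% of changes of 1 log2 were recovered.

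**Figure D4:**
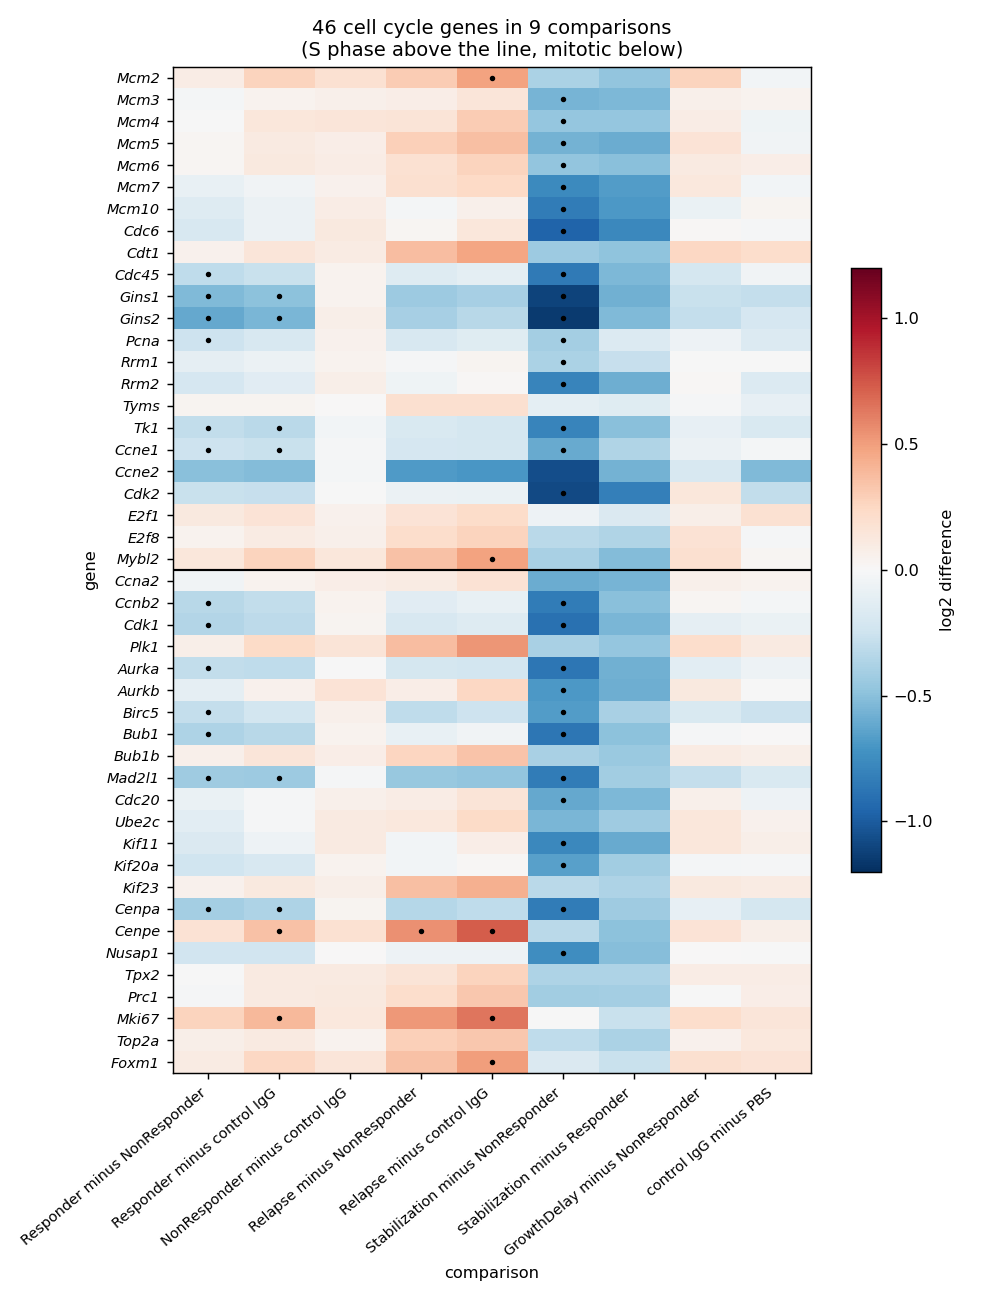
Log2 difference of 46 genes (rows, S phase above the line and mitotic below) in 9 comparisons (columns), red where the first-named group is higher and blue where it is lower, with dots where the limma adjusted p is under 0.05. The Stabilization minus NonResponder column holds 28 dots, all blue, the Responder minus NonResponder column 13, all blue, and the Relapse minus control IgG column 5, all red.

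How far the members moved together from tumour to tumour depended on the 4 arrays. With the mean of each group and series removed, 177 of the 1035 pairs of members correlated below 0 over the 86 arrays and 55 below −0.3. Over all 90 arrays 34 pairs correlated below 0 and 5 below −0.3. These correlations describe arrays that share normalization, and the pairs named were chosen after their values were seen. Over the 86 arrays, Mki67 and Cenpe had a Pearson r of 0.95 (Spearman rho 0.95) and Gins1 and Gins2 of 0.92 (rho 0.90), against 0.90 and 0.95 over all 90. Mki67 and Ccne2, cyclin E2, had r = −0.74 (rho −0.75), with −0.77 in 52 arrays of the larger series and −0.63 in 22 of the smaller. Mki67 against Mad2l1 gave −0.72 and against Gins2 −0.61. Over all 90 arrays these 3 pairs gave weaker values, −0.54 for Ccne2, −0.44 for Mad2l1 and −0.36 for Gins2. The sign held within 25 Responder, 22 NonResponder and 22 control IgG arrays, where Mki67 and Gins2 gave −0.49, −0.84 and −0.82.

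A principal component analysis of these residuals put 44.4% of the variance on a component shared by most members and 32.4% on a second that set the members against each other. Over all 90 arrays the shares were 62.6% and 21.9%. On the second component 44 of the 46 members kept the sign they had over the 86 arrays. At 1 end of the second stood Mad2l1, Gins1, Gins2, Cenpa, Ccne2, Birc5 and Pcna, and at the other Mki67, Cenpe, Foxm1, Cdt1, Mcm2 and Plk1. Both ends mixed S phase and mitotic genes, so the opposition was not that between the S phase and the mitotic genes. All 13 members lower in Responder than in NonResponder tumours were among the 24 of the Gins2 side, and all 5 higher in Relapse than in control IgG tumours among the 22 of the Mki67 side. The 28 members lower in Stabilization than in NonResponder tumours came from both sides, 23 from the Gins2 side and 5 from the Mki67 side. The component and the calls come from the same arrays. Genes that vary together also share the error of their group differences, so these placements are not an independent result. The endothelial markers' mean correlated with the second component at r = 0.74 (rho 0.75, 86 arrays, positive towards Mki67), the macrophage markers' mean at 0.48 and the melanocyte markers' mean at −0.33. The 3′ minus 5′ signal of Gapdh gave 0.15 (rho 0.36) over 85 arrays without PBS replicate 5. What these share with the members beyond the arrays was not tested.

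**Figure D5:**
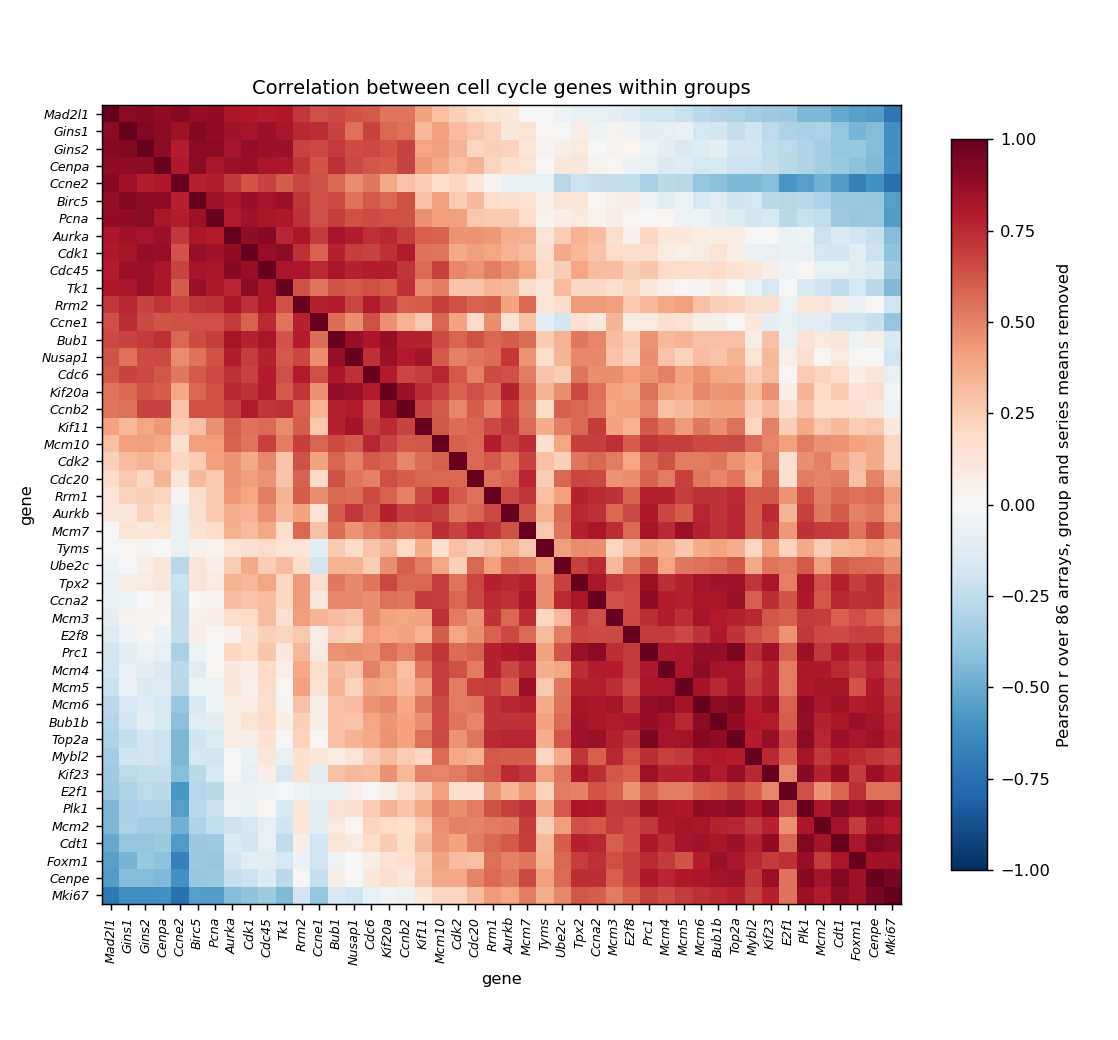
Pearson correlation between each pair of 46 genes over 86 arrays after the mean of each group and series was removed, with genes ordered by their place on the second component. Red is positive and blue negative. The block around Gins1 and Mad2l1 (top left) is negative against the block around Mki67 and Cenpe (bottom right), down to −0.74 for Ccne2 and Mki67.

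Further genes of the same pathways were counted from lists. Of 30 other replication genes 14 were lower and 1 higher in Responder than in NonResponder tumours, and of 40 other mitosis genes 15 were lower and 1 higher, against 29.8% lower and 17.2% higher over all genes. Gins4, another GINS subunit, fell by 0.40 ± 0.10, the origin recognition gene Orc1 by 0.19 ± 0.05, the clamp loader gene Rfc4 by 0.58 ± 0.16 and Dut, which removes dUTP, by 0.48 ± 0.14. Of the mitosis genes, the kinetochore genes Spc24 and Cenpk fell by 0.36 ± 0.10 and 0.71 ± 0.20, the phosphatase gene Cdkn3 by 0.52 ± 0.16 and the motor Kif15 by 0.16 ± 0.05. The higher genes were Timeless and Incenp, and neither was called within the larger or the smaller series alone. Within the larger series none of these replication and mitosis genes was called, where few genes of all were called. Rfc4 differed there by −0.34 ± 0.20 (limma adjusted p = 0.258). Within the smaller series it differed by −0.97 ± 0.26 (limma adjusted p = 0.0049).

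Of 23 genes of G1 control 5 were higher (21.7%, near the 17.2% of all genes) and 2 lower (8.7%, against 29.8% of all genes). Cdk6, a G1 kinase, had a median of 8.91 (7.39 to 9.96) in Responder tumours and 8.01 (6.85 to 9.86) in NonResponder tumours, a difference of 0.94 ± 0.18 (limma adjusted p = 0.000163). Cdk4, the kinase carried as R24C in these tumours, had a median of 11.23 (9.54 to 11.54) in Responder tumours and 11.45 (10.12 to 11.83) in NonResponder tumours, and fell by 0.34 ± 0.09 (limma adjusted p = 0.0037). The array does not tell the R24C form from the normal one. Rb1, the brake that both kinases release, was higher by 0.36 ± 0.09, and the inhibitor gene Cdkn1a by 0.53 ± 0.17. Cdk4 was 0.31 ± 0.11 lower in Responder than in control IgG tumours (limma adjusted p = 0.0263) and 0.73 ± 0.21 lower in Stabilization than in NonResponder tumours. It differed by −0.18 ± 0.15 between Relapse and NonResponder tumours, without passing. Between Responder and NonResponder tumours Cdk4 did not pass within the larger series (−0.215 ± 0.118, limma adjusted p = 0.222). Within the smaller series it fell by 0.54 ± 0.15 (limma adjusted p = 0.00588). Of all the further genes, only Cdk6 was called within the larger series (0.77 ± 0.23, limma adjusted p = 0.0481), where few genes of all were called. Of 15 checkpoint and repair genes 4 were lower in Responder than in NonResponder tumours (26.7%, close to the 29.8% of all genes): Rad51ap1 by 0.49 ± 0.15, Chek2 by 0.31 ± 0.11, Chek1 by 0.32 ± 0.12 and Exo1 by 0.28 ± 0.11.

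The 46 members had 104 probe sets in all, of which 92 belonged to the 34 members with several. Between Responder and NonResponder tumours 30 of the 104 were called, 29 lower and 1 higher, and no member had calls in both directions. The second probe set of Gins2 differed by −0.63 ± 0.18, close to the −0.62 of the one used. Cenpa had a dimmer probe set at 0.11 ± 0.12, which did not pass, beside the −0.41 of the brightest. For Top2a the brightest probe set gave 0.07 and the dimmest, with a mean of 4.52, −0.29 ± 0.06.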

How the data were processed

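The deposited table held log2 expression values for 45101 probe sets on 90 Affymetrix arrays. The authors made them with RMA and used limma, per the submitters' processing notes, which give no version. Per the labels' protocols, 800 ng of total RNA was amplified and labelled for each array. The number of arrays limits the precision.

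Probe sets were named through the platform annotation: 34945 had 1 gene symbol, 932 several and 9160 were not listed, and 64 were controls. The brightest probe set on average stood for each of 18193 genes. limma 3.58.1 (R 4.3.3) was fitted to all 90 arrays with group and title series as terms, with moderated tests and Benjamini-Hochberg adjustment over all genes. Fitting every combination of group and series separately gave the within-series values and the test between series. Tables were made with Python 3.11.15, pandas 2.3.3 and numpy 2.4.6. The fit was tested on simulated data.

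The members and the lists of further genes and markers were chosen with earlier results of these data known. Genes named were, for each role and comparison, up to 3 with the smallest p, with Mki67, Top2a, Pcna, Cdk1 and Mcm5 throughout, and up to 4 of each further list with Cdk4 throughout. Other members named were chosen after their values were seen. Comparisons share arrays: Responder and Relapse tumours each stand against the same NonResponder and control IgG tumours. Alternatives were median centring, quantile normalization, the series left out or as a random block, only the arrays of the groups compared, array weights, a filter on dim genes, another probe set, arrays with neighbouring tissue left out and single replicates left out.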

Additional observations from a re-analysis of the deposited data

Results flagged for a closer look

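In groups of 4 to 10 tumours, the gap of the highest or lowest tumour to its neighbour was set against the group's range for 96 combinations of gene or list level and group, and 3 passed Dixon's critical value. Chance flags about 1 in 20. In PBS tumours, Aurkb, an aurora kinase, was highest in replicate 5 at 9.72 (log2), against 9.2 in the next tumour. Kif11, a spindle motor, was lowest in the same replicate at 8.0, against 8.55 in the next. That array has the high 3′ minus 5′ signals of Gapdh (4.31) and beta-actin (6.09), and their part was not tested. In Relapse tumours, Pcna was highest in replicate 2 at 13.29, against 13.08 in the next.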

How the results depend on the processing

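All counts here are members called by limma. The share of all genes called in each alternative fit is not given. The counts therefore show how the calls depend on the setting and are not results about the list. Responder minus NonResponder gave 13, and gave 21 with median centring, 31 with array weights (14 higher, 17 lower) and 5 without 21 arrays holding neighbouring tissue. Within the larger series its count of 0 became 1 with median centring, 20 with array weights and 10 without the 4 arrays that stood apart. Within the smaller series its count of 16 became 26 with median centring, 0 without neighbouring tissue, 1 without the 4 arrays and 1 with that series fitted alone. Responder minus control IgG gave 8, and 14 without the series term, 34 with weights, 15 without neighbouring tissue and 19 without the 4 arrays. Within the larger series its 3 became 1 with quantile normalization, 35 with weights, 11 without neighbouring tissue and 15 without the 4 arrays. Relapse minus NonResponder gave 1, and 4 with median centring (all lower) or only the groups compared (2 higher, 2 lower), 0 with quantile normalization or no series term, 26 with weights, 5 without neighbouring tissue and 13 without the 4 arrays. Leaving out single Relapse tumours gave 0 to 2. Relapse minus control IgG gave 5, and 2 with median centring, 0 with quantile normalization, no series term or only the groups compared, 1 with a random block, 31 with weights, 13 without neighbouring tissue, 3 with the probe set of largest variance, 14 without the 4 arrays and 0 to 6 without single Relapse tumours. Stabilization minus NonResponder gave 28, and 1 without the 4 arrays and 0 to 36 without single tumours. Stabilization minus Responder gave 0, and 12 without the series term, 1 with a random block, 44 with weights, 26 without neighbouring tissue and 0 to 28 without single tumours. Control IgG minus PBS gave 0, and 6 with weights. The array weights did not converge fully. Cenpa turned to 0.105 (limma adjusted p = 0.48) between Responder and NonResponder tumours with the probe set of largest variance, and Mki67 to 0.350 (limma adjusted p = 0.00194) between Stabilization and NonResponder tumours with weights. Of the other values of named members, 3668 kept direction and call, 291 gained and 175 lost a call. The cause of these changes was not tested. Leaving out the 4 arrays and fitting a series alone were chosen after seeing the data. No paired analysis was possible because replicate numbers were given in the order of the samples and tie no tumour to another.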

Other observations

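Over 86 arrays, with group and series means removed, the mean of the G1 control genes correlated with the first component of the members at r = 0.51 and with the second at 0.55, towards Mki67. The mean of the further replication genes gave 0.72 and −0.65, and that of the further mitosis genes 0.83 and −0.51. The melanocyte markers' mean gave 0.65 with the first component. These are descriptions of arrays that share their normalization.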
